A study of Homo sapiens with 52 samples.

Results

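The mitochondrial ribosomal protein genes were the 78 protein-coding genes whose symbol is MRPL or MRPS followed by a number and at most 1 letter A, B or C, out of 19855 protein-coding genes and 63241 genes in all in the count table. By symbol, 49 belong to the large subunit (MRPL) and 29 to the small subunit (MRPS). By place in the assembled ribosome, as background knowledge, 51 sit in the large and 26 in the small subunit, because MRPS30 and MRPS18A are built into the large subunit, and MRPS36 was not placed. The genes lie on 21 chromosomes.

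RNA came from i3Neurons, human neurons made from the induced pluripotent stem cell line WTC11 by a program that doxycycline switches on. On day 3 they were moved onto inserts with 1 µm pores, and on day 17 RNA was taken as a neurite fraction and a fraction with the cell bodies (soma). The 10 groups were soma and neurites of untreated neurons without a guide RNA (4 samples each), of the hnRNPA1 experiment with non-targeting guides or with hnRNPA1-knockdown (6 samples each) and of the TDP43 experiment with non-targeting guides or with TDP43-knockdown (5 samples each). All groups come from this 1 line, and guide RNAs were brought in as transduced sgRNAs while the cells were stem cells. The kit for sequencing libraries was version 2 for untreated neurons and version 3 for both knockdown experiments, so kit and experiment cannot be told apart. Whether numbered samples came from separate cultures is not stated, and the p-values below therefore rest on spread that may be technical.

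Mitochondrial ribosomes make the 13 proteins that mitochondrial DNA encodes, all of them membrane subunits of the respiratory chain and ATP synthase. Their 2 ribosomal RNAs come from mitochondrial DNA, and all their proteins come from nuclear genes, are made on cytosolic ribosomes and are imported. The small subunit decodes the mRNA, and the large subunit joins the amino acids. In neurons mitochondria travel far along neurites, and some mRNAs of mitochondrial proteins are found there too.

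Total counts per library ran from 2541925 to 4346122 in untreated neurites and from 5212152 to 10519656 in untreated soma, against 6257922 to 28902344 in the knockdown experiments. Only 541 counts stood in sample 5 of TDP43 knockdown soma, so 4 samples of that group were used. HNRNPA1 was at 359 ± 20.6 counts per 1000000 (CPM; mean ± SD, n = 6) in control soma and 140 ± 9.3 (n = 6) in knockdown soma, and TARDBP, the gene of TDP43, at 110 ± 4.57 (n = 5) and 19.5 ± 0.92 (n = 4). The summed CPM of 8 neuron markers was 4690 to 18353 over the libraries used, against 3.7 to 21.7 for 6 pluripotent markers, 11.2 to 59.3 for 8 glial markers and 0.533 to 27.4 for 6 mesenchymal markers. All 6 neural progenitor markers together stood at 74.0 to 360 CPM in soma and 210 to 707 in neurites, and 5 cycling-cell markers at 4.85 to 32.2 and 11.2 to 56.1. HES5 was at 0 in all untreated neurite libraries and LUM in all TDP43 knockdown soma libraries. In each of the 5 settings the neurite libraries lay above the soma libraries for both of these lists, and their part in the results was not tested. In bulk samples a lower share of some cell type and less RNA per cell cannot be told apart.

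The promoters of members were compared with those of other genes in RefSeq windows of 250 bases before to 50 bases after the transcript start (GRCh38.p14), which the table held for 69 of the 78 members in 85 windows. Cytosolic ribosomal protein genes, which encode the other ribosome of the cell, typically start transcription at a C followed by pyrimidines, the TOP element that ties their translation to growth signals. A start of C and 4 further pyrimidines was present in 60.3% of 78 windows of cytosolic ribosomal protein genes, in 7.06% of the member windows and in 4.07% of all 35116 windows. The following 15 bases before and 15 after the start show this difference. They belong to 6 members with large neurite to soma differences and to 2 cytosolic ribosomal protein genes, with the first 5 transcribed bases in capitals.
MRPL22, chr5:154941058-154941087, plus strand: tgctgtccagaaggcGCTTGaactcggcgg
MRPS15, chr1:36464370-36464399, minus strand: tccggtattgcaactGCCTCgattggtcga
MRPL51, chr12:6493248-6493277, minus strand: gtgggcggtgcgcccACAGCtgcctgggta
MRPS35, chr12:27710817-27710846, plus strand: cccctccggcttgccGTCCTcgcagccatg
MRPS5, chr2:95121794-95121823, minus strand: ggcggaggccgaggcGCGGCtcggactcca
MRPL46, chr15:88467374-88467403, minus strand: cgcggtgcattgtggGAGAAcgaaagatgg
RPL12, chr9:127451392-127451421, minus strand: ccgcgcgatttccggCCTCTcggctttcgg
RPS19, chr19:41860240-41860269, plus strand: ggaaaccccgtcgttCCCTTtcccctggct
None of these 6 members began with C and 4 pyrimidines, and both cytosolic genes did. MRPS5 has a further RefSeq start upstream that is not shown.

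Motifs of 3 factor families known for genes of mitochondrial proteins were searched on both strands. The ETS core CCGGAAG, bound by GABPA and its relatives, was in 38.8% of member windows and 10.3% of all windows. The YY1 motif AAGATGGCG was in 15.3% against 1.75%, and the NRF1 motif in 11.8% against 5.78% (15.4% of large and 6.06% of small subunit windows). Windows of protein-coding genes alone held ETS, YY1 and NRF1 motifs in 12.9%, 2.45% and 7.39%. The 39 windows of nuclear-encoded complex I subunits held them in 12.8%, 15.4% and 15.4%, so the YY1 and NRF1 shares of the members were no higher than in that list. The ETS core was in 36.5% of large subunit windows and 42.4% of small subunit windows, and in 33.3% of windows of cytosolic ribosomal protein genes. A match describes the letters only. The 120 bases before the start are shown for 3 members that the comparisons below name, with ETS cores of either strand in capitals.
MRPL20, chr1:1407294-1407413, minus strand: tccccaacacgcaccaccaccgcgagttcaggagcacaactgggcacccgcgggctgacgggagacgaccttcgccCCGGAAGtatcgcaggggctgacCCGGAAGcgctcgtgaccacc
MRPL51, chr12:6493263-6493382, minus strand: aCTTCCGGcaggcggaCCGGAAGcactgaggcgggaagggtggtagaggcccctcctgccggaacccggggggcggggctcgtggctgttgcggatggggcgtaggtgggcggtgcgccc
MRPS18A, chr6:43687792-43687911, minus strand: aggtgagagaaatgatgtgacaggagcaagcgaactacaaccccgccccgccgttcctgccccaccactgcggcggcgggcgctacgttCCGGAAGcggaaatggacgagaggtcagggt
MRPL20 and MRPL51 each hold 2 ETS cores. MRPS18A holds 1, and its YY1 motif lies beyond the stretch shown.

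Of the 78 members, 77 passed the filter on low counts in both knockdown experiments and 73 in untreated neurons. MRPL53 had at most 1 count in any library. Its exons overlap those of CCDC142 on the same strand, which stood at 12.9 CPM in hnRNPA1 control soma. MRPL12, MRPL38, MRPS12 and MRPS24 failed the filter in untreated neurons only. MRPL12, which with MRPL10 forms the stalk that recruits translation factors, was at 0.225 ± 0.082 CPM in untreated soma (n = 4), while MRPL10 was at 11.4 ± 1.1. Exons of MRPL12 overlap AC139530.2 on the same strand, and the part of shared reads was not tested. MRPS12, the decoding centre protein in which streptomycin resistance arises in bacteria, was at 1.43 ± 0.22 CPM in untreated soma.

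On the scale of CPM per kilobase of exons, the median member was at 6.07 in untreated soma and at 8.56 in hnRNPA1 control soma. In all 8 groups of the knockdown experiments MRPS26 was the highest (31.9 to 46.1 CPM per kilobase). MRPS34 or MRPS18B was next. In untreated neurons MRPS35 was the highest, at 26.5 in soma and 84.7 in neurites, followed by MRPS21 at 19.2 and 76.5. MRPS26 itself differed between the settings, at 9.37 ± 1.34 CPM in untreated soma (n = 4), 49.0 ± 5.12 in hnRNPA1 control soma (n = 6) and 39.6 ± 1.59 in TDP43 control soma (n = 5). Levels were scaled within each experiment, so levels of different experiments also differ by scaling. The unscaled share of all counts in members was 0.2336% in untreated soma and 0.2265% in hnRNPA1 control soma.

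Neurites gave fewer of their counts to the members than soma did in each setting. In untreated neurons the member share was 0.173 ± 0.009% of all counts for neurites and 0.234 ± 0.012% for soma (mean ± SD of 4 libraries each), and no neurite library reached the lowest soma library. In hnRNPA1 controls the shares were 0.172 ± 0.015% and 0.227 ± 0.005% (n = 6 each), and in TDP43 controls 0.128 ± 0.010% and 0.193 ± 0.009% (n = 5 each). Mean shares of mitochondrially encoded RNA and of 7SL RNA were larger in neurites in each setting. That of rRNA genes and pseudogenes, mitochondrial rRNA included, was 5.93 ± 1.193% in untreated neurites against 1.43 ± 0.23% in soma, but 3.67 ± 0.38% against 4.23 ± 0.87% in TDP43 controls. Mitochondrially encoded RNA was 12.6 ± 2.23% of counts in untreated neurites against 3.71 ± 0.36% in soma, and 7SL RNA was 18.1 ± 7.81% in TDP43 control neurites against 1.4 ± 0.3% in soma. Against nuclear protein-coding counts alone the member share was 0.222% in untreated neurites and 0.27% in soma, 0.225% and 0.261% in hnRNPA1 controls, and 0.213% and 0.227% in TDP43 controls. In TDP43 controls the libraries then overlapped (0.189 to 0.254% in neurites, 0.221 to 0.24% in soma).

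**Figure D1:**
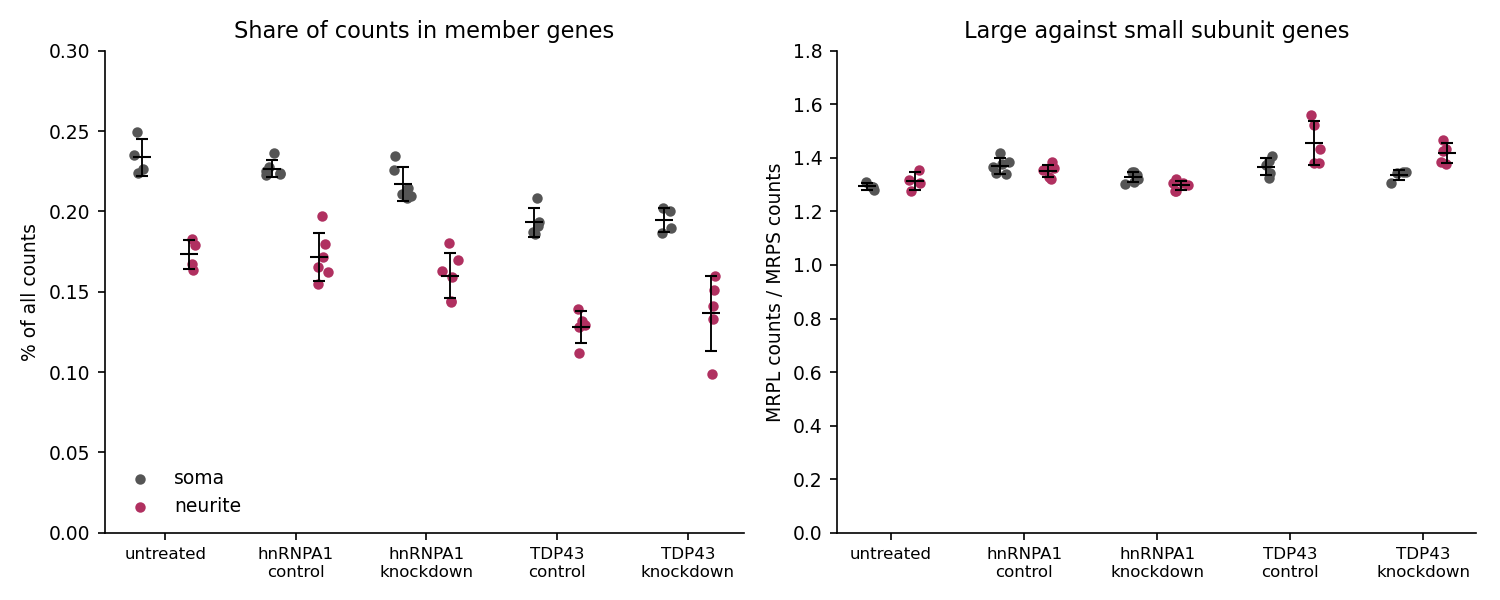
The left plot gives the share of all counts in the 78 member genes (percent) and the right plot the ratio of MRPL to MRPS counts, each point 1 library, in soma and neurites of the 5 settings, with mean and SD. Neurite shares lie below soma shares in each setting, while the ratio of subunits lies between 1.27 and 1.56 over all libraries.

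Large subunit genes held 1.27 to 1.56 times the counts of small subunit genes. In untreated neurons the ratio was 1.29 ± 0.01 for soma and 1.31 ± 0.03 for neurites (n = 4 each), and the libraries overlapped. It was 1.37 ± 0.03 and 1.35 ± 0.02 in soma and neurites of hnRNPA1 controls (n = 6 each), and 1.37 ± 0.03 and 1.45 ± 0.08 in those of TDP43 controls (n = 5 each), with overlap in both. After hnRNPA1 knockdown the ratio was 1.33 ± 0.02 in soma and 1.2973 ± 0.0179 in neurites (n = 6 each). All knockdown neurite libraries (1.2744 to 1.3198) lay below all control neurite libraries (1.3226 to 1.3841), while the soma libraries of control and knockdown overlapped. After TDP43 knockdown it was 1.3358 ± 0.0195 in soma (n = 4) and 1.4176 ± 0.0368 in neurites (n = 5), and all neurite libraries (1.3783 to 1.4671) lay above all soma libraries (1.3066 to 1.3466). Knockdown and control overlapped in neurites and in soma of the TDP43 experiment. With members sorted by place in the ribosome the ratio ran from 1.503 to 1.699 over the groups, and in untreated neurons the order was the opposite, with 1.59 ± 0.02 in soma and 1.5 ± 0.02 in neurites. All untreated neurite libraries (1.4751 to 1.535) then lay below all untreated soma libraries (1.5707 to 1.6223), while the fractions overlapped in both sets of controls. By place, too, hnRNPA1 knockdown neurites (1.4747 to 1.5387) lay below control neurites (1.5583 to 1.6296), and TDP43 knockdown neurites (1.6362 to 1.7315) above knockdown soma (1.5553 to 1.6052).

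Next, neurites were compared with soma gene by gene, which asks whether transcripts of the members were over- or under-represented in neurites relative to other genes. In this test (edgeR with TMM scaling, which centres most genes) a gene is called at an adjusted p under 0.05. In untreated neurons 38 of 73 members were higher and 11 lower in neurites, where 56.5% of all genes tested were called (28.7% higher and 27.8% lower). Under scaling by library size, which follows the share of all counts, 14 were higher and 43 lower. The median log2 change of the members was 0.59 and that of all genes -0.21, a gap of 0.80. Scaling by library size shifted both down, to -0.60 and -1.40. It moves all genes by about the same amount, so the gap of 0.80 could hardly change and is no separate support. Of the 73 members, 35 had all neurite libraries above all soma libraries and 11 had them below, against 26.7% and 24.8% of all genes. Without any 1 of the 4 neurite libraries the count of lower members was 5 to 7, and without the filter on low counts it was 6.

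Of the large subunit genes 24 of 46 were higher and 6 lower, with a median of 0.60, and of the small subunit genes 14 of 27 were higher and 5 lower, with a median of 0.57. The medians were -0.59 and -0.62 when scaled by library size. Sorted by place in the ribosome, members classed with a bacterial counterpart had medians of 0.58 (29 large subunit genes) and 0.48 (14 small subunit genes). Members classed as specific to mitochondria had 0.62 (19) and 0.26 (10). That class includes MRPS18A and MRPS18B, although both descend from a bacterial protein. The 35 tested members with named pseudogenes, whose reads can be hard to place, had a median of 0.68 with 21 higher and 4 lower, and the 38 without had 0.31 with 17 and 7.

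**Figure D2:**
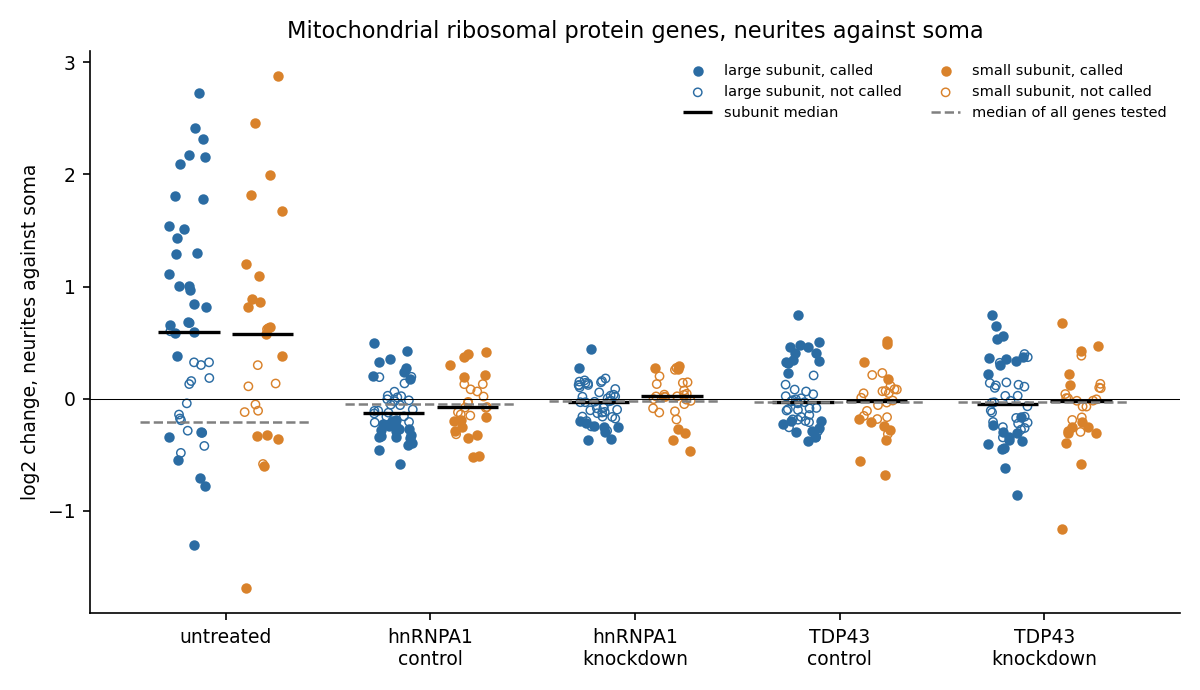
Each point is a member's log2 change in neurites against soma in 1 of the 5 settings, filled where called, with the median of each subunit (black line) and of all genes tested (dashed line), all with TMM scaling. In untreated neurons the members spread from -1.69 to 2.88 and both subunit medians lie near 0.6, and in the other settings the points lie between -1.16 and 0.74 with medians near 0.

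The 4 members with the highest log2 change in untreated neurites were MRPS28, MRPL22, MRPS15 and MRPL21. MRPL22, which lines the exit tunnel of the large subunit (chr5:154941070-154969411, GENCODE 29), stood at 16.3, 17.2, 17.2 and 18.0 CPM in the 4 soma libraries and at 121, 121, 107 and 106 in the neurite libraries. The groups were far apart, with a log2 change of 2.72 ± 0.10 (SE; adjusted p = 1.21e-15). MRPS15, a small subunit protein with a bacterial counterpart (chr1:36455718-36464437), was at 24.8, 26.6, 28.3 and 35.3 CPM in soma and 154, 156, 156 and 159 in neurites. Its log2 change was 2.46 ± 0.11 (adjusted p = 2.28e-14). MRPS28 was much less abundant, at 0.84 to 1.4 CPM in the 4 soma libraries and 5.98, 9.07, 9.39 and 11.1 in neurites, again with no overlap (log2 change 2.88 ± 0.31, adjusted p = 6.06e-08). Exons of MRPS28 overlap AC036214.3 on the same strand, and the part of shared reads was not tested. MRPL21 rose by 2.42 ± 0.11 on the log2 scale (adjusted p = 6.29e-14). All 4 were also called higher with scaling by library size.

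At the other end lay MRPS5, MRPL46, MRPL17 and MRPL50. MRPS5, a small subunit protein at the mRNA entry side (chr2:95087207-95149434), was at 16.6, 16.8, 18.5 and 20.1 CPM in the 4 soma libraries and at 4.54, 5.56, 5.58 and 7.51 in the neurite libraries. Neurites were lower in every library, with a log2 change of -1.69 ± 0.19 (adjusted p = 1.45e-07). Exons of MRPS5 overlap those of ZNF514 on the same strand, which also fell in untreated neurites (-1.03 ± 0.16, adjusted p = 1.65e-05). The part of shared reads was not tested. MRPL46 was at 4.55, 5.32, 5.59 and 5.61 CPM in soma and at 0.8, 1.25, 2.47 and 3.56 in neurites (-1.31 ± 0.36, adjusted p = 0.00425). Its exons overlap AC013489.1 on the same strand, and the part of shared reads was not tested here either. MRPL17 and MRPL50 changed by -0.78 ± 0.20 and -0.71 ± 0.12 (adjusted p = 0.00309 and 3.56e-05). These 4 calls also held with scaling by library size. That scaling moves genes down in this comparison, so it could not undo a lower call and is no separate support.

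Among members with special roles, MRPL58, a peptide release factor built into the large subunit, rose by 0.82 ± 0.17 in untreated neurites on TMM scaling, and MRPS7, in the head of the small subunit, by 0.63 ± 0.16 (adjusted p = 0.000443 and 0.00273). On library size scaling both turned to -0.38 and -0.56. The members MRPS18A, MRPS18B and MRPS18C descend from 1 bacterial protein, S18, and MRPS18A occupies the large subunit. MRPS18B and MRPS18C were higher by 0.82 ± 0.15 and 0.89 ± 0.18 on TMM scaling (adjusted p = 8.09e-05 and 0.000261) and at -0.38 and -0.30 on library size scaling. MRPS18A was at 0.62 ± 0.30 (adjusted p = 0.0842). MRPS30, in the large subunit despite its name, was lower by -0.33 ± 0.10 (adjusted p = 0.00845), but it was not called without neurite sample 4, 6 or 7 (adjusted p = 0.148, 0.178 and 0.101) or without the filter on low counts (0.0762).

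With non-targeting guides the neurite to soma differences of the members were small. In hnRNPA1 controls 14 of 77 members were higher and 28 lower, where 48.4% of all genes were called (23.5% higher and 24.9% lower), and in TDP43 controls 16 were higher and 15 lower, where 46.5% were called (24.1% and 22.4%). All neurite libraries lay above all soma libraries for 4 and 6 members and below for 10 and 5, against 14.1% and 16.5% of all genes above and 10.2% and 14.5% below. On library size scaling no member was higher and 63 and 64 were lower. The medians on TMM scaling were -0.11 and -0.03, beside -0.05 and -0.03 for all genes. On library size scaling they were -0.46 and -0.65, beside -0.40 and -0.63 for all genes. Large and small subunit medians were -0.13 and -0.08 in hnRNPA1 controls and -0.03 and -0.02 in TDP43 controls. Leaving out TDP43 control neurite sample 1 or 2 brought the count of lower members in that experiment to 8 and 9.

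MRPL51 and MRPS35 lay farthest from their subunit's median in 1 direction in both sets of controls. They were picked by these values, so their p-values in the controls are no separate support. MRPS35, a small subunit protein found only in mitochondria (chr12:27710773-27756295), ranged from 32.7 to 38.4 CPM (median 33.8) in hnRNPA1 control soma and from 40.6 to 50.4 (median 45.7) in neurites. The libraries did not overlap, and the log2 change was 0.39 ± 0.06 (adjusted p = 1.48e-06). In TDP43 controls it was 0.49 ± 0.08 (adjusted p = 7.32e-06) and in untreated neurons 1.67 ± 0.11 (adjusted p = 3.75e-11). MRPL51, a large subunit protein (chr12:6491886-6493841), changed by 0.35 ± 0.08, 0.51 ± 0.10 and 2.09 ± 0.12 in the same 3 comparisons (adjusted p = 0.000438, 0.000197 and 1.19e-12). Scaled by library size, the changes of MRPS35 in the hnRNPA1 and TDP43 controls were 0.05 and -0.14 and those of MRPL51 0.00 and -0.12, none of them called.

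In TDP43 controls MRPL22 was the highest, at 8.69, 9.44, 9.51, 9.69 and 12.7 CPM in soma and 14.6, 14.6, 15.7, 19.0 and 21.4 in neurites. The groups did not overlap (log2 change 0.74 ± 0.11, adjusted p = 1.54e-06; 0.12 and not called with library size scaling). MRPS5 was again the lowest, at 8.37, 8.91, 9.67, 9.99 and 10.5 CPM in soma and 5.25, 5.4, 5.52, 6.61 and 6.65 in neurites, with no overlap (-0.68 ± 0.13, adjusted p = 7.51e-05). ZNF514, whose exons it overlaps, was at -0.38 ± 0.09 there. In hnRNPA1 controls the 4 lowest were MRPL38, MRPS17, MRPS12 and MRPL12 (-0.59, -0.52, -0.51 and -0.46). Exons of MRPL38 overlap AC087289.3 on the same strand. MRPS17 ranged from 3.24 to 4.89 CPM (median 3.94) in soma and from 2.49 to 3.39 (median 2.63) in neurites, and the libraries overlapped (adjusted p = 0.0023). Its exons overlap NIPSNAP2 and AC092647.5 on the same strand, and 4 pseudogenes bear its name. The part of shared reads was not tested. MRPL12 was not called without control neurite sample 1, 2 or 6 or control soma sample 1 (adjusted p = 0.0517 to 0.0729). The 4 highest were MRPL33, MRPL16, MRPS18C and MRPS35 (0.50, 0.42, 0.42 and 0.39).

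The 73 members tested throughout were then followed across untreated neurons and both sets of controls. Called higher in neurites in all 3 were 8 of the 73 members (and 14.7% of all genes), namely MRPL1, MRPL20, MRPL21, MRPL22, MRPL51, MRPS15, MRPS18C and MRPS35. Exons of MRPL20 overlap RN7SL657P, by its symbol a 7SL pseudogene, on the same strand. The part of shared reads was not tested. Called lower in all 3 were 4 (and 10.0% of all genes), namely MRPL17, MRPS5, MRPS25 and MRPS27. MRPL32 and MRPL45 were called higher in untreated neurons and lower in both controls (1.41% of all genes). All these calls use TMM scaling. With library size scaling none of the 8 was called higher in either set of controls. MRPL32 and MRPL45 were then not called higher in untreated neurons. Of these 14 genes, MRPS27, MRPL32 and MRPL45 are named by the rule for named genes in no comparison, and MRPL1 and MRPL20 only in others than these 3. Naming them here was chosen after their values were seen. Without the filter on low counts MRPS18C was not called in TDP43 controls (adjusted p = 0.0982). Across the 73 members the log2 changes of untreated neurons had a Pearson correlation of 0.58 with those of hnRNPA1 controls and 0.75 with those of TDP43 controls, as a description. The libraries of these settings are separate, and the points share gene length and base composition.

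**Figure D3:**
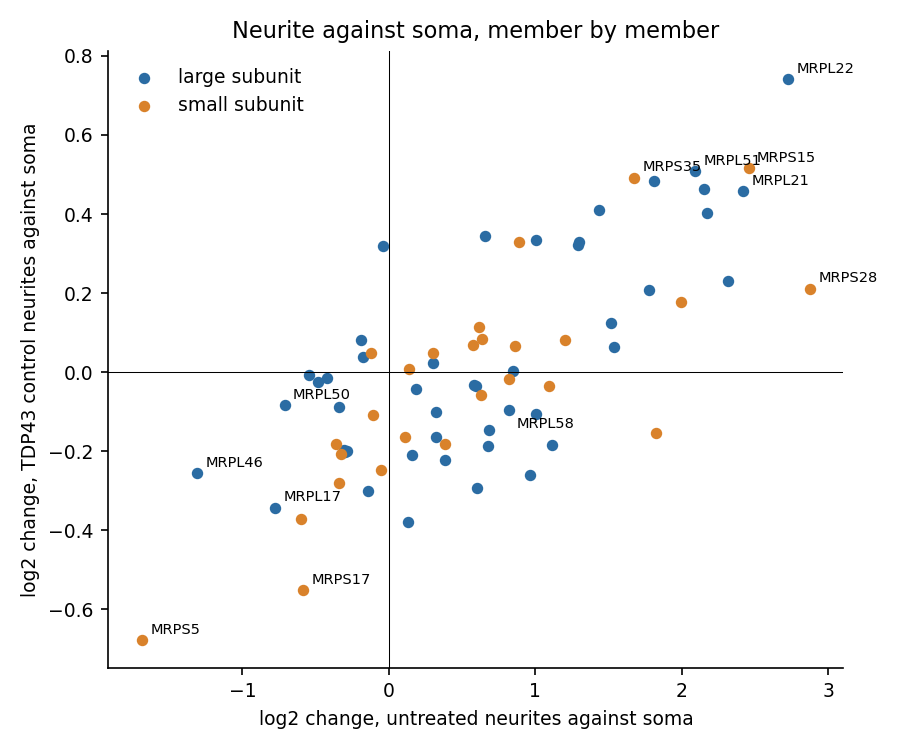
Each point is a member, with its log2 change in neurites against soma in untreated neurons (x axis) and in TDP43 controls (y axis), both with TMM scaling and coloured by subunit. MRPL22 is highest on the y axis and MRPS5 lowest on both axes, and the range on the x axis (-1.69 to 2.88) is wider than on the y axis (-0.68 to 0.74).

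The difference in neurite to soma ratio between untreated neurons and each set of controls was tested in a joint fit. Against hnRNPA1 controls the ratio was higher in untreated neurons for 33 of 77 members and lower for 13, where 37.1% of all genes were called (13.1% higher and 23.9% lower). Against TDP43 controls it was higher for 34 and lower for 11, where 37.5% were called (13.5% and 24.0%). Scaled by library size, these were 20 and 30, and 22 and 21. Without untreated neurite sample 4 the lower count against TDP43 controls was 6. Both tests share the untreated libraries. The member medians were 0.31 and 0.36, beside -0.41 and -0.48 for all genes. MRPS28 (2.24 ± 0.26 and 2.48 ± 0.27) and MRPL22 (2.13 ± 0.15 and 1.79 ± 0.15) were among the highest 4 in both, and MRPS5 (-1.63 ± 0.21 and -1.197 ± 0.22) and MRPL46 (-1.59 ± 0.31 and -1.23 ± 0.33) the lowest 2. MRPL46 rests on few reads in untreated neurites. Without untreated neurite sample 6 its value against TDP43 controls was -1.862, and without sample 7 it was -0.9. These differences coincide with the kit version and with the lower depth of untreated neurites. Across members, log2 changes in untreated neurons had a Spearman correlation of -0.38 with exon length, and of 0.01 and -0.13 in the controls, as a description over 73, 77 and 77 genes.

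Gene lists of related function were followed in the same comparisons, without a test against the members. The 13 mitochondrially encoded proteins, the products of this ribosome, were all higher in neurites in untreated neurons, hnRNPA1 controls and TDP43 controls, with medians of 2.69, 1.93 and 1.77 (least in TDP43 controls for MT-ATP8, at 1.43 ± 0.11). Both mitochondrial ribosomal RNAs were higher too, with MT-RNR1 at 3.51 ± 0.21, 2.54 ± 0.18 and 2.37 ± 0.15. Of 79 cytosolic ribosomal protein genes 77, 76 and 76 were higher and none lower, with medians of 3.44, 1.119 and 1.55. Nuclear-encoded subunits of complex I, which work beside the mitochondrial products, numbered 32 of 36, 16 of 37 and 18 of 37 among the higher and 1, 5 and 4 among the lower. Proteins of this ribosome without an MRP symbol (DAP3 and 4 others) were called higher in 3, 1 and 2 cases of 5, and none was lower. Mitochondrial translation factors numbered 9 of 14, 5 of 17 and 6 of 17 among the higher and 2, 2 and 3 among the lower. Ribosome assembly factors, which build the particle, gave 6 of 24, 2 of 26 and 2 of 26 higher against 7, 16 and 14 lower, with METTL17 lowest in each (-1.65 ± 0.19, -0.52 ± 0.08 and -0.72 ± 0.08). Mitochondrial tRNA synthetases, which charge the tRNAs, gave 5 of 16, 2 of 17 and 2 of 17 higher against 4, 8 and 10 lower, with VARS2 lowest in each. These counts use TMM scaling. With library size scaling all 13 mitochondrially encoded proteins were still called higher in each comparison, and 76, 72 and 71 of 79 cytosolic ribosomal proteins were higher and 2, 2 and 1 lower. Complex I subunits were then higher in 20, 7 and 2 and lower in 8, 19 and 21, translation factors higher in 3, 1 and 0 and lower in 8, 11 and 13, and the 5 proteins without an MRP symbol higher in none and lower in 2, 4 and 4. Assembly factors were higher in 2, 0 and 0 and lower in 21, 24 and 24, and tRNA synthetases higher in 1, 0 and 0 and lower in 12, 16 and 16.

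**Figure D4:**
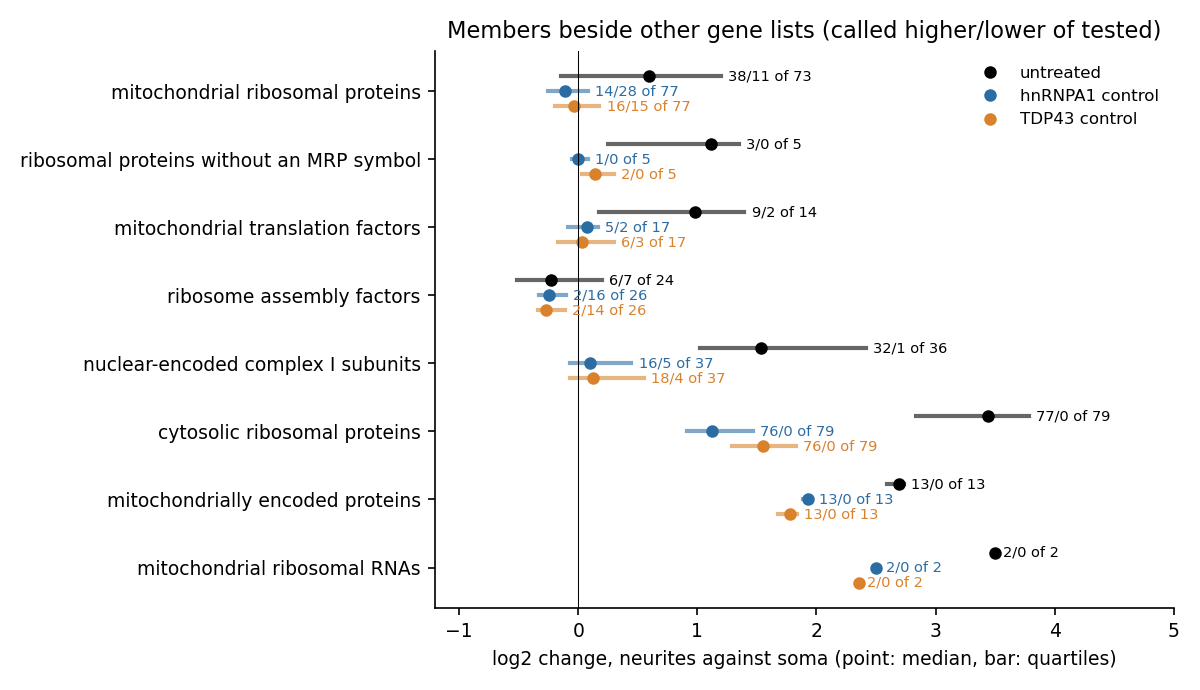
For the members and 7 other gene lists, points give the median log2 change in neurites against soma and bars the quartiles, in untreated neurons, hnRNPA1 controls and TDP43 controls (TMM scaling), with the numbers called higher and lower of those tested. Members lie near 0 in both controls, whereas cytosolic ribosomal proteins and mitochondrially encoded RNAs lie above 1.

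Knockdown of hnRNPA1, an RNA-binding protein of splicing and mRNA transport, left member transcripts in soma near their control level. No member was called in soma by edgeR or DESeq2, where 7.09% of all genes were called (3.79% higher and 3.3% lower), and 9 members had an unadjusted p under 0.05. In neurites 6 members rose and 5 fell, where 16.2% of all genes were called (8.95% higher and 7.21% lower). The counts were 1 and 16 when scaled by library size. The 6 that rose were MRPL24 (0.38 ± 0.11), MRPS7 (0.37 ± 0.08), MRPS18A (0.36 ± 0.10), MRPS18B (0.33 ± 0.08), MRPL15 (0.24 ± 0.08) and MRPS26 (0.23 ± 0.08). The 5 that fell were MRPL33 (-0.42 ± 0.12), MRPS18C (-0.36 ± 0.11), MRPL47 (-0.29 ± 0.09), MRPL3 (-0.28 ± 0.10) and MRPL1 (-0.26 ± 0.09). MRPL3, MRPL24 and MRPL33 are large subunit proteins with bacterial counterparts.

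The 3 descendants of bacterial S18 did not move alike in hnRNPA1 knockdown neurites. MRPS18B went from 47.8 to 54.8 CPM (median 51.2) in control neurites to 55.8 to 68.4 (median 65.2) in knockdown neurites, with no overlap (adjusted p = 0.00267). MRPS18A went from 11.8 to 14.5 (median 12.1) to 12.9 to 19.6 (median 15.3), with overlap (adjusted p = 0.00784). MRPS18C went from 11.1 to 15.1 (median 13.0) to 8.99 to 11.2 (median 10.5), where the ranges overlapped by a narrow margin (adjusted p = 0.0174). MRPS7 ranged from 24.6 to 28.9 (median 26.2) in controls and from 31.6 to 38.1 (median 33.8) in knockdown neurites, with no overlap (adjusted p = 0.00141). MRPL33 fell from 12.9 to 18.2 (median 16.1) to 10.4 to 14.7 (median 11.2), and the libraries overlapped (adjusted p = 0.0181). BABAM2, whose exons overlap MRPL33, changed by -0.03 ± 0.12. Libraries did not overlap for 4 members above and 0 below, against 3.97% and 2.83% of all genes.

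Several of these calls were lost when 1 library was left out, and the counts ran from 3 to 8 higher and 2 to 6 lower. Without knockdown neurite sample 2, 3 members were higher and 3 lower, and without control neurite sample 1, 2 were lower. MRPS18C and MRPL24 were not called without knockdown neurite sample 2 (adjusted p = 0.0535 for both), MRPL33 without knockdown neurite sample 3 (0.0513) and MRPL47 without control neurite sample 1 (0.057). MRPL3, MRPL1, MRPS26 and MRPL15 each lost the call without any of 7 or 8 libraries of the 12, and MRPS26 and MRPL15 also without the filter on low counts (adjusted p = 0.133 and 0.233). MRPS7, MRPS18A and MRPS18B kept it in every such fit. After scaling by library size MRPS7 alone of the 6 risen genes was called.

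The neurite to soma ratio of no member changed between hnRNPA1 knockdown and control by edgeR or DESeq2, where 0.177% of all genes were called (0.0454% higher and 0.131% lower), and 4 members had an unadjusted p under 0.05. Within knockdown cells 5 members were higher and 12 lower in neurites, where 35.8% of all genes were called (19.4% and 16.4%), and with library size scaling 0 and 68. Without knockdown soma sample 2 the counts were 8 and 6, and without knockdown neurite sample 1 or 3 the lower count was 7 and 6. In hnRNPA1 knockdown neurites 12 of 13 mitochondrially encoded proteins rose (median 0.51, and 10 with library size scaling), and 20 of 79 cytosolic ribosomal proteins fell and none rose (58 fell with library size scaling). The share of 7SL RNA was 6.87 ± 1.66% in control neurites and 9.52 ± 1.93% in knockdown neurites, and its part in these results was not tested.

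**Figure D5:**
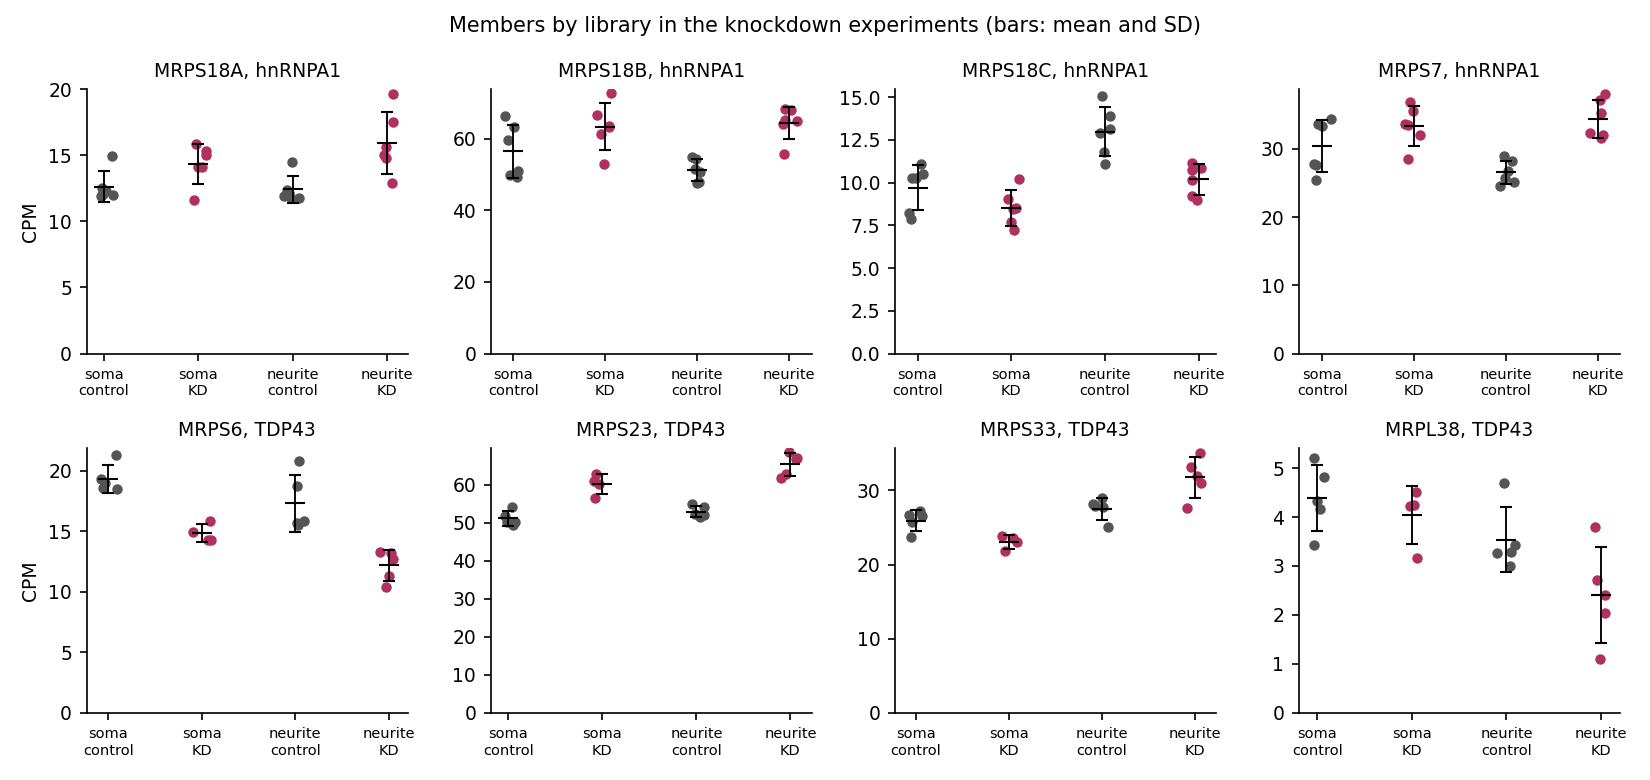
CPM by library of 4 members in the hnRNPA1 experiment (upper row) and 4 in the TDP43 experiment (lower row), in control and knockdown (KD) soma and neurites, with mean and SD. MRPS18A, MRPS18B and MRPS7 are higher and MRPS18C lower in hnRNPA1 knockdown neurites, and MRPS6 is lower and MRPS23 higher after TDP43 knockdown in both fractions.

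Knockdown of TDP43, an RNA-binding protein that represses cryptic exons, changed few members. In soma 1 member rose and 1 fell, where 19.0% of all genes were called (9.42% higher and 9.53% lower). In neurites 3 rose and 2 fell, where 24.8% were called (14.0% higher and 10.9% lower). Libraries of the groups did not overlap for 2 members above and 1 below in neurites, against 8.72% and 5.02% of all genes, and for 1 and 1 in soma, against 11.1% and 10.6%. After scaling by library size 2 rose and 0 fell in neurites, and 0 were called in soma. Over fits that left out 1 library the neurite counts ran from 2 to 6 higher and 1 to 6 lower, the extremes being without control neurite sample 4 (6 higher) and sample 1 (6 lower). MRPS6, the counterpart of bacterial S6, which binds S18 on the platform of the small subunit (chr21:34073224-34143034), fell in both fractions on TMM scaling. In soma it was at 18.5, 18.6, 19.0, 19.3 and 21.3 CPM in controls and 14.3, 14.3, 14.9 and 15.9 in knockdown libraries. The groups did not overlap (log2 change -0.38 ± 0.08, adjusted p = 0.000437). In neurites it was at 15.5, 15.7, 15.9, 18.8 and 20.8 in controls and at 10.4, 11.3, 12.7, 13.2 and 13.3 after knockdown, again without overlap (-0.46 ± 0.09, adjusted p = 0.000455). SLC5A3, a transporter gene whose exons overlap MRPS6, changed by -0.15 ± 0.06 in soma and 0.09 ± 0.06 in neurites (adjusted p = 0.0742 and 0.332). With library size scaling MRPS6 kept its direction, with adjusted p = 0.0526 and 0.0614.

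MRPS23, a small subunit protein found only in mitochondria (chr17:57834781-57850056), rose in both fractions. It was at 49.4, 50.1, 50.1, 51.7 and 54.1 CPM in control soma and 56.6, 60.2, 60.9 and 62.7 in knockdown soma. In neurites it was at 51.4, 51.9, 52.4, 54.1 and 54.8 in controls and 61.6, 62.8, 66.7, 66.9 and 68.6 after knockdown. Neither pair of groups overlapped, and the log2 changes were 0.23 ± 0.05 and 0.31 ± 0.05 (adjusted p = 0.000934 and 6.36e-05). Its call in soma was lost with library size scaling (adjusted p = 0.378). MRPS33, another small subunit protein found only in mitochondria, was at 25.02, 27.8, 27.8, 28.1 and 28.95 CPM in control neurites and 27.6, 31.1, 32.0, 33.2 and 35.0 in knockdown neurites, with overlap (0.22 ± 0.07, adjusted p = 0.0153). It was not called without control neurite sample 1 or knockdown neurite sample 4 (adjusted p = 0.0545 and 0.0548), or without the filter on low counts (0.0704). MRPS30 was at 37.3, 41.0, 42.2, 45.6 and 46.0 in control neurites and 46.4, 46.7, 48.3, 49.6 and 54.8 in knockdown neurites, with no overlap (0.20 ± 0.06, adjusted p = 0.0178), and was not called without knockdown neurite sample 2 (0.0511) or without the filter (0.0922). MRPL38 was at 3.0, 3.27, 3.29, 3.43 and 4.7 CPM in control neurites and 1.1, 2.04, 2.41, 2.71 and 3.8 in knockdown neurites, with overlap (-0.63 ± 0.23, adjusted p = 0.0455). It lost its call without any of 7 of the 10 neurite libraries (adjusted p = 0.0582 to 0.189) and with a replicate block (0.0557).

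The neurite to soma ratio differed between TDP43 knockdown and control for 2 members, where 10.5% of all genes were called (5.83% higher and 4.66% lower). It was higher after knockdown for MRPS33 (0.39 ± 0.09, adjusted p = 0.00684) and lower for MRPS9 (-0.30 ± 0.09, adjusted p = 0.0385). MRPS33 was at 25.9 ± 1.37 CPM in control soma, 23.1 ± 0.91 in knockdown soma, 27.5 ± 1.48 in control neurites and 31.8 ± 2.76 in knockdown neurites. MRPS9 was at 17.9 ± 0.91, 19.7 ± 0.87, 18.6 ± 1.02 and 16.4 ± 0.99 in the same order. The MRPS9 call was lost without any of 10 of the 19 libraries (adjusted p = 0.0504 to 0.0808), with DESeq2 (0.0515) and without the filter (0.18). Within knockdown cells 15 members were higher and 21 lower in neurites, where 57.7% of all genes were called (28.7% higher and the rest lower), and with library size scaling 0 and 61. The ratio calls of MRPS33 and MRPS9 were lost with library size scaling (adjusted p = 0.207 and 0.61). MRPS5 was lowest there (-1.16 ± 0.13, adjusted p = 2.98e-08) and MRPL22 highest (0.74 ± 0.11, adjusted p = 1.19e-06).

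In TDP43 knockdown neurites all 13 mitochondrially encoded proteins rose (median 0.56, and 12 with library size scaling), and 39 of 79 cytosolic ribosomal proteins rose and none fell (35 rose with library size scaling). DAP3, a small subunit protein of this ribosome that binds GTP, fell by 0.38 ± 0.09 on TMM scaling and was at -0.30 and not called with library size scaling. The member medians in TDP43 knockdown were 0.01 in soma and -0.01 in neurites. The share of 7SL RNA was 18.1 ± 7.81% in control neurites and 9.45 ± 7.61% in knockdown neurites, and its part in these results was not tested.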

How the data were processed

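RNA-seq of total RNA from neurite and soma fractions was analysed from a gene table that the authors deposited. Its values are expected counts in which 81.1% of the nonzero values were whole within 0.005 and the rest fractional, and per the submitters' processing notes STAR 2.7.11b, featureCounts and Subread 2.0.6 with build hg38 were used. Strand and multimapping settings were not given in the sources used here, so reads of members with pseudogenes (36 members), of genes that overlap on the same strand (16) and of genes that overlap on the opposite strand (29) may be split or shared. Gene positions come from GENCODE 29.

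Counts were rounded and tested with edgeR 4.0.16 (R 4.3.3) by quasi-likelihood, with TMM scaling and filterByExpr, separately for untreated, hnRNPA1 and TDP43 libraries and jointly for untreated neurons against controls. P-values were adjusted by Benjamini-Hochberg over all genes tested, with calls at adjusted p under 0.05. Of 52 libraries 51 were used, with those under 100000 counts left out. CPM values use the TMM-scaled library sizes of the same fits. Alternatives were library size scaling, DESeq2 1.42.0, no filter, a replicate block and leaving out each library. The test was tried on simulated data.

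The members and lists were chosen with earlier results of these data known. Genes named are the 4 highest and 4 lowest members of a comparison, all called members where at most 12 were called, and 11 fixed members. Of these 11, MRPL51 and MRPS35 were picked by their values in both sets of controls, and the others for special roles. From other lists only the highest and lowest gene are named.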

Additional observations from a re-analysis of the deposited data

Results flagged for a closer look

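The 66 checks each covered 1 measure or member in 1 group of 4 to 6 samples, and many share libraries. In 7 of them 1 sample lay far from the others, where chance gives about 1 in 20. The ratio of large to small subunit counts was 1.3066 in TDP43 knockdown soma sample 2. MRPL22 stood at 12.65 CPM in TDP43 control soma sample 4, MRPS6 at 21.32 in the same library, and MRPL38 at 4.7 in TDP43 control neurite sample 4. In hnRNPA1 neurites MRPS18A stood at 14.5 CPM in control sample 4, MRPL33 at 14.65 in knockdown sample 2 and MRPS18B at 55.83 in knockdown sample 6.

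The neurite to soma ratio differed between TDP43 knockdown and control for MRPS9 (-0.302) and MRPS33 (0.391), as log2 differences with adjusted p under 0.05 in edgeR. Between untreated neurons and hnRNPA1 controls it differed for MRPS5 (-1.63), MRPL46 (-1.59), MRPL50 (-0.813), MRPL13 (-0.792), MRPS30 (-0.656), MRPS7 (0.568), MRPS18B (0.699) and MRPL58 (0.714). It also differed there for MRPS35 (1.013), MRPL51 (1.481), MRPL21 (1.959), MRPL41 (2.027), MRPL22 (2.131) and MRPS28 (2.24). Between untreated neurons and TDP43 controls it differed for MRPL46 (-1.231), MRPS5 (-1.197), MRPL50 (-0.815), MRPS30 (-0.306), MRPS7 (0.504), MRPS18B (0.649) and MRPL58 (0.723). The remaining differences there were those of MRPS35 (0.991), MRPL51 (1.393), MRPS36 (1.789), MRPL22 (1.791), MRPL20 (1.897) and MRPS28 (2.476). Kit version and experiment cannot be told apart in these, and MRPS7 against hnRNPA1 controls was at -0.018 with library size scaling. The call of MRPS7 against hnRNPA1 controls was lost without untreated neurite sample 6 (edgeR adjusted p = 0.131). Against TDP43 controls it was lost without that library (0.199), untreated soma sample 4 or 5 (0.0612 and 0.0962) or control neurite sample 1, 2 or 6 (0.0748, 0.0622 and 0.0681), and without the filter on low counts (0.0526). MRPS30 against TDP43 controls was not called without untreated neurite sample 4 or 6 (0.05 and 0.058) or with DESeq2 (0.13). MRPL46 against TDP43 controls was at -1.862 without untreated neurite sample 6. Every difference listed for MRPS18B and MRPL58 kept its call when 1 library was left out, which does not bear on scaling. With library size scaling the member median of these ratio differences was -0.282 against hnRNPA1 controls and -0.023 against TDP43 controls.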

How the results depend on the processing

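Scaling mattered most. With library size scaling the counts of members higher and lower in neurites were 14 and 43 in untreated neurons, 0 and 63 in hnRNPA1 controls, 0 and 68 in hnRNPA1 knockdown, 0 and 64 in TDP43 controls and 0 and 61 in TDP43 knockdown. They were 1 and 16 for hnRNPA1 knockdown against control in neurites, 0 and 0 for TDP43 knockdown in soma, 2 and 0 in neurites and 0 and 0 for the TDP43 ratio change. For untreated neurons against hnRNPA1 controls they were 20 and 30, and against TDP43 controls 22 and 21. Signs turned for 13 named changes. In untreated neurons these were MRPS7 (-0.558), MRPL58 (-0.377), MRPS18B (-0.380) and MRPS18C (-0.298). In hnRNPA1 knockdown they were MRPL51 (-0.166), MRPS34 (-0.160) and MRPS35 (-0.145), and in TDP43 controls MRPS18C (-0.286), MRPS35 (-0.137), MRPL51 (-0.119) and MRPS15 (-0.122). MRPS35 in TDP43 knockdown (-0.112) and MRPS7 in the ratio against hnRNPA1 controls (-0.018) complete them. The cause was not tested beyond the shift of all genes given above.

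Without the filter on low counts 6 members were lower in untreated neurites, 9 higher in hnRNPA1 control neurites, 26 and 33 lower in TDP43 control and knockdown neurites against soma and 5 lower in TDP43 knockdown neurites against control. DESeq2 gave 2 lower for TDP43 knockdown in soma, 5 in neurites, 0 for its ratio change, and 8 and 5 for the ratios of untreated neurons against hnRNPA1 and TDP43 controls. Of 102 named calls 9 were lost without the filter, namely MRPS30 in untreated neurites, MRPS18C in TDP43 controls, MRPL38 in hnRNPA1 knockdown neurites against soma (adjusted p = 0.0767), MRPS26 and MRPL15 in hnRNPA1 knockdown against control, MRPS30 and MRPS33 in TDP43 knockdown neurites, and the ratios of MRPS9 and, against TDP43 controls, MRPS7. DESeq2 lost 3, namely MRPL38 in hnRNPA1 knockdown neurites against soma (0.0764) and the ratios of MRPS9 and, against TDP43 controls, MRPS30. The cause was not tested.

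Whether sample numbers pair the libraries was not settled. Same-number correlations of deviations between fractions ran from -0.233 to 0.429, and not every pair exceeded 0.1. Of untreated samples 3 of 4 correlated best with their own number, of TDP43 knockdown samples 4 of 4, and of TDP43 soma samples, knockdown with control, 3 of 3 (0.097 to 0.128). Between fractions it was only 2 of 6 in hnRNPA1 controls, 2 of 6 in hnRNPA1 knockdown and 1 of 5 in TDP43 controls. Between knockdown and control it was 1 of 6 in hnRNPA1 soma, 1 of 6 in hnRNPA1 neurites and 0 of 4 in TDP43 neurites. With a replicate block the count of higher members was 8 for hnRNPA1 knockdown neurites against soma and 10 for knockdown against control in neurites, and the lower count 4 for TDP43 knockdown in neurites. The other 23 counts stayed within 1.5 times, and 2 of 102 named calls were lost, both of MRPL38, in hnRNPA1 knockdown neurites against soma (adjusted p = 0.0793) and in TDP43 knockdown neurites against control (0.0557).

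Leaving out 1 library at a time gave 36 to 42 higher and 5 to 11 lower in untreated neurites, 11 to 18 and 8 to 19 in TDP43 controls, and 4 to 8 and 6 to 13 in hnRNPA1 knockdown. For hnRNPA1 knockdown against control it gave 0 to 1 higher in soma, and 3 to 8 higher and 2 to 6 lower in neurites. For TDP43 knockdown it gave 1 to 2 and 1 to 2 in soma, 2 to 6 and 1 to 6 in neurites, and 0 to 3 lower in the ratio. The lower count for the ratio against TDP43 controls was 6 to 12. Of 102 named calls 79 held in every such fit.

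Against nuclear protein-coding counts, a denominator chosen after seeing the data, the member share in neurites and soma was 0.2219% and 0.2700% (untreated), 0.2248% and 0.2611% (hnRNPA1 control), 0.2314% and 0.2594% (its knockdown), 0.2133% and 0.2272% (TDP43 control) and 0.1907% and 0.2281% (its knockdown). By place in the ribosome the large to small ratio was 1.5027 and 1.5936, 1.5894 and 1.5929, 1.5139 and 1.5353, 1.6986 and 1.6261, and 1.6761 and 1.5880 in the same order. In untreated neurites 70 to 74 of the 78 members had at least 5 counts in a library, against 76 in untreated soma. MRPL12 had 3 counts in untreated soma sample 4 and 63 in hnRNPA1 control soma sample 1, at totals of 10519656 and 10883331.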

Other observations

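Genes of mitochondrial transcription and RNA processing, which supply the rRNA and mRNA of this ribosome, were higher in neurites in 6, 3 and 4 of 19 and lower in 7, 11 and 10 in untreated neurons, hnRNPA1 controls and TDP43 controls on TMM scaling. With library size scaling they were higher in 3, 1 and 1 and lower in 15, 16 and 18. TFB2M, which opens mitochondrial promoters for the RNA polymerase, was highest in each of these comparisons on TMM scaling (2.36 ± 0.14, 1.08 ± 0.10 and 1.04 ± 0.09). Nuclear regulators of genes for mitochondrial proteins were higher in 3 of 9, 5 of 10 and 6 of 10 and lower in 2, 1 and 2 on TMM scaling, and higher in 2, 1 and 1 and lower in 6, 5 and 5 with library size scaling. GABPB1, a partner of the ETS factor GABPA, was highest in both controls on TMM scaling (0.73 ± 0.08 and 1.144 ± 0.10).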
